A study of Arabidopsis thaliana with 4 samples.

Results

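*DND1* (*CNGC2*, AT5G15410) and *DND2* (*CNGC4*, AT5G54250) are 2 of the 27444 protein-coding genes annotated on the nuclear chromosomes of Arabidopsis, and they were picked by their TAIR10 locus identifiers. They were chosen with earlier results of these data known, so the values below describe these libraries and were not tested. RNA Pol II occupancy was measured by chromatin immunoprecipitation and sequencing (ChIP-seq) in leaves of 21-day-old plants, with an antibody against total RNA Pol II (ab817) and with input chromatin sequenced alongside. The groups were *hyl1-2* ChIP, *hyl1-2* input, WT ChIP and WT input, with 1 library each. *hyl1-2* is a knock-out mutant of *HYL1*, whose product is a double-stranded RNA binding partner of DCL1 in miRNA biogenesis, and WT was Col-0, the background of the mutant. The design asked how RNA Pol II is distributed over the genome without HYL1. The sources do not say how many plants were pooled for a library, and with 1 library per group no spread between plants could be measured.

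DND1 and DND2 are cyclic nucleotide-gated channels (CNGCs), a family of cation channels of plant membranes, and both belong to its subgroup IVB. They assemble into a calcium-permeable channel of the plasma membrane that takes part in calcium entry when pattern recognition receptors perceive a microbe, and both were first described from mutants named "defense, no death", which resist pathogens without the usual hypersensitive cell death and have high salicylic acid and small rosettes. TPR1, a corepressor of the TOPLESS family, is known to bind the promoters of both genes and to repress them during immune responses.

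Both genes lie on the minus strand of chromosome 5 in the TAIR10.1 annotation. *DND1* spans chr5:5003226-5006882, which is 3657 bp, with 2 annotated transcripts and 9 exons after the transcripts are merged. *DND2* spans chr5:22025035-22030099, which is 5065 bp, with 4 transcripts and 9 merged exons, and is named *CNGC4* in the annotation. The GC content was 42.6% over *DND1* and 35.8% over *DND2*. The 200 bp directly upstream of the annotated 5′ ends, called the promoter here, are printed because this window is 1 of those in which RNA Pol II was counted and because the promoters of the 2 genes are the known places of TPR1 binding. They were read from the TAIR10.1 reference, chr5:5006883-5007082 for *DND1* and chr5:22030100-22030299 for *DND2*, and are written 5′ to 3′ on the minus strand, so that the last base adjoins the gene. Capitals mark TTGAC or its reverse complement GTCAA, the core of the W-box, an element that WRKY transcription factors bind. Only this core was searched and not the bases beside it, so a match need not be a full W-box.
*DND1* promoter: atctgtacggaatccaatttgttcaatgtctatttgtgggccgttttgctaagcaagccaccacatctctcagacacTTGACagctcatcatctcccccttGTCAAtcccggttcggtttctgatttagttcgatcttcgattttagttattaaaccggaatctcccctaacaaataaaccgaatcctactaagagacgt
*DND2* promoter: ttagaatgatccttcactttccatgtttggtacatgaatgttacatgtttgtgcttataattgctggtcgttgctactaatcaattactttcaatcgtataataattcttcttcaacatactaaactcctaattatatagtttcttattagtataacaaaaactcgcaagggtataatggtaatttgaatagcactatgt

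The *DND1* promoter held the W-box core at 2 places, from 123 to 119 bp upstream of the gene on the gene's own strand and from 99 to 95 bp upstream on the other strand. The *DND2* promoter held none. Over both strands, the W-box core was present in 38.7% of the 27443 promoters of this length. A further 4 motifs were searched on both strands, and 0 of the 4 were found in either window. The core bound by TGA factors, spelled TGACG, was present in 15.7% of all promoters. A TATA box, spelled TATAAA here, was present in 41% of them. The G-box, spelled CACGTG, was present in 5.64%. The core bound by CAMTA factors, spelled CGCGT, was present in 5.89%. The GC content of the 2 windows was 42.5% for *DND1* and 29.5% for *DND2*. These matches describe the letters of the reference and say nothing of which factor was bound in these leaves.

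Sequencing depth was 30333558 reads for *hyl1-2* ChIP, 22766187 reads for *hyl1-2* input, 37717174 reads for WT ChIP and 17734005 reads for WT input. Read counts were scaled by these totals (RPM). ChIP RPM was divided by input RPM within each genotype, and the fold change is this ratio in *hyl1-2* divided by the same ratio in WT. Values above 1.2 or below 0.8 are called higher or lower. Intervals are 95% intervals for counting error alone. No molecular identifiers are described, and in each library 0 reads shared both start and strand with another. Separate molecules with the same start and strand were thus counted once. The genotype labels were checked at *HYL1* itself: within the gene, a stretch of 20 bp (chr1:3139497-3139516) was covered by 0 and 0 aligned reads in *hyl1-2* ChIP and input, against 26 and 12 in WT ChIP and input. The stretch was found from the reads of the *hyl1-2* libraries. Over the whole *HYL1* gene, 2473 and 490 reads lay in *hyl1-2* ChIP and input, against 1037 and 411 in WT ChIP and input, a fold change of 3.19 (2.75 to 3.71).

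The ChIP libraries of the 2 genotypes stood apart at marker genes. All 6 leaf mesophyll markers were above 1.2 over the whole gene, beside 25.9% of all genes, with fold changes from 1.27 to 4.30, the highest at *RBCS1A*, and ChIP over input ratios of 1.09 to 2.69 in *hyl1-2* and 0.626 to 1.31 in WT. The 9 markers of root, pollen and seed storage, genes of other organs, had ratios of 0.960 to 1.2 in *hyl1-2* and 1.14 to 1.85 in WT. The 3 guard cell markers had fold changes between 0.781 and 1.17 and the 2 phloem markers between 0.759 and 1.5. With 1 ChIP library per genotype, more RNA Pol II at a gene in *hyl1-2* and a difference between the 2 immunoprecipitations cannot be told apart, and in whole leaves neither can more RNA Pol II per cell and more cells of a type.

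In each of the 4 windows counted, the RNA Pol II signal over input of *DND1* was higher in *hyl1-2* than in WT, while that of *DND2* differed little over its length. Over the whole *DND1* gene, ChIP and input gave 2231 and 673 reads in *hyl1-2*, against 895 and 571 reads in WT. This gave a ChIP over input ratio of 2.49 (2.28 to 2.71) in *hyl1-2* and 0.737 (0.664 to 0.819) in WT. The intervals of the 2 genotypes did not overlap, and ChIP was above input in *hyl1-2* and below input in WT. The fold change was 3.38 (2.95 to 3.87), which was higher than in 97.9% of the 27441 genes with at least 10 reads in each library. Among these genes the median fold change was 0.958, with 25.9% above 1.2 and 21.4% below 0.8. The counting interval lay above 1 for 25.2% of them and below 1 for 27.9%. The ratio of *DND1* in *hyl1-2* was above that of 96.5% of genes and its ratio in WT above that of 14.9%.

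**Figure D1:**
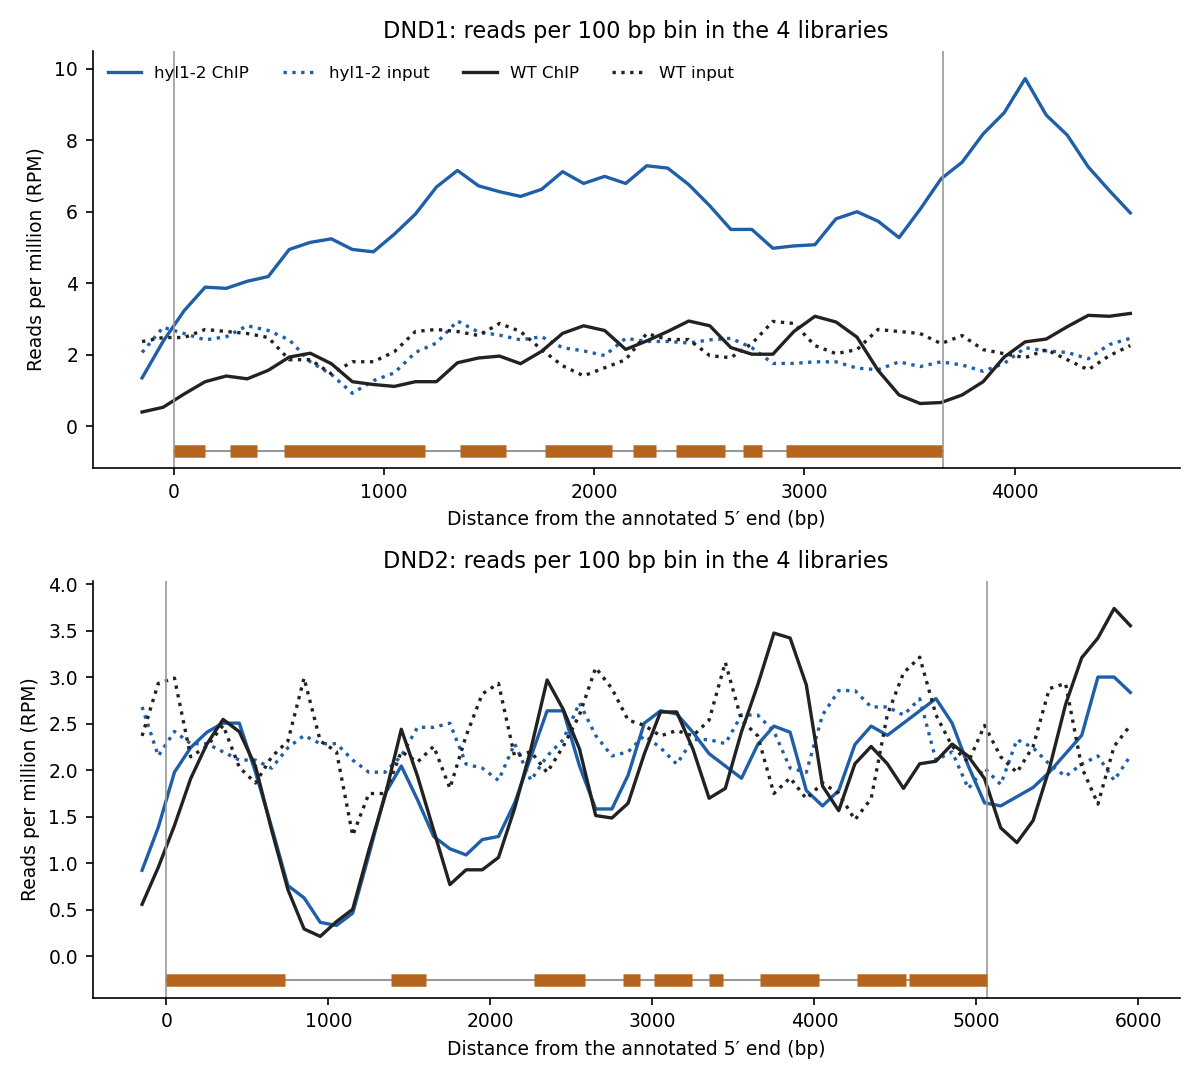
RNA Pol II ChIP and input in RPM per 100 bp bin (y axis, each panel with its own scale) against the distance from the annotated 5′ end in bp (x axis) for *DND1* (top) and *DND2* (bottom), with *hyl1-2* in blue, WT in black, ChIP solid and input dotted, 1 library each. Grey vertical lines are the annotated ends and brown blocks the merged exons; over *DND1* the *hyl1-2* ChIP line lies above the other 3 from the first bin of the gene on, while over *DND2* the 2 ChIP lines run close together.

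The inputs differed little over *DND1* as a whole. For input RPM over the gene, the quotient of *hyl1-2* and WT was 0.918 (0.821 to 1.03), and for ChIP RPM alone it was 3.10 (2.87 to 3.35). A mapping quality of 0, given to reads that fit more than 1 place, was found for 0 reads over the gene in each of the 4 libraries.

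The *DND1* promoter had 84 reads in *hyl1-2* ChIP and 71 in *hyl1-2* input, against 25 in WT ChIP and 58 in WT input. The ratio was 0.888 (0.647 to 1.22) in *hyl1-2* and 0.203 (0.127 to 0.324) in WT, and the fold change was 4.38 (2.49 to 7.71). At promoters, 58.6% of the 26437 genes with enough reads were above 1.2, with a median of 1.33, and the interval lay above 1 for 30.8%. The value of *DND1* was higher than that of 97.3% of promoters. The promoter ratio in WT was a low one, above that of 9.31% of genes, and the one in *hyl1-2* was above that of 68.9%. In neither genotype did the promoter carry more RNA Pol II, relative to input, than the gene.

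In the first 200 bp of *DND1*, 137 and 78 reads were counted in *hyl1-2* ChIP and input, against 53 and 60 in WT ChIP and input. The ratios of 1.32 in *hyl1-2* and 0.415 in WT gave a fold change of 3.17 (2.00 to 5.04), above that of 94.9% of genes. In this window 48.4% of genes were above 1.2 and 25.8% had an interval above 1. In the 1 kb downstream of *DND1*, the counts were 905 and 196 in *hyl1-2* ChIP and input, against 343 and 163 in WT ChIP and input. The ratios there were 3.47 (2.97 to 4.04) in *hyl1-2* and 0.989 (0.821 to 1.19) in WT, and the fold change was 3.5 (2.75 to 4.46), beside 42.4% of genes above 1.2 and 34.2% with an interval above 1. The *hyl1-2* library thus had its highest ratio of the 4 windows after the annotated end of *DND1*, and this window lies wholly in the next gene, described further on.

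*DND2*, the gene of the partner subunit, had 997 ChIP and 987 input reads over the whole gene in *hyl1-2*, against 1228 ChIP and 790 input reads in WT. The ratio was 0.758 (0.694 to 0.828) in *hyl1-2* and 0.731 (0.668 to 0.799) in WT, so ChIP was below input in both genotypes. The fold change of 1.04 (0.915 to 1.18) had an interval that included 1. The ratio of *DND2* in *hyl1-2* was above that of only 7.61% of genes and its ratio in WT above that of 14.3%, which placed *DND1* and *DND2* side by side in WT and far apart in *hyl1-2*.

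At the *DND2* promoter, 49 and 75 reads lay in *hyl1-2* ChIP and input, against 40 and 62 in WT ChIP and input. The fold change was 1.62 (0.946 to 2.76), above that of 63.9% of promoters, and with the window moved to 300 to 100 bp upstream it was 1.12, which is not above 1.2. In the first 200 bp of *DND2* the counts were 82 and 71 in *hyl1-2* ChIP and input, against 84 and 65 in WT ChIP and input, with a fold change of 1.43 (0.906 to 2.25). Both values were above 1.2 and close to those of a middle gene, whose medians were 1.33 for the promoter and 1.18 for the first 200 bp. The 1 kb downstream of *DND2* had 262 and 212 reads in *hyl1-2* ChIP and input, against 378 and 169 in WT ChIP and input, and a fold change of 0.882 (0.683 to 1.14), where 13.0% of genes were below 0.8 and 10.7% had an interval below 1. At the promoter 11.7% of genes were below 0.8 and 2.67% had an interval below 1, and in the first 200 bp 18.8% and 5.84%. In each of the 4 windows of *DND2* the counting interval included 1, so that a difference between genotypes was not detectable at this depth.

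**Figure D2:**
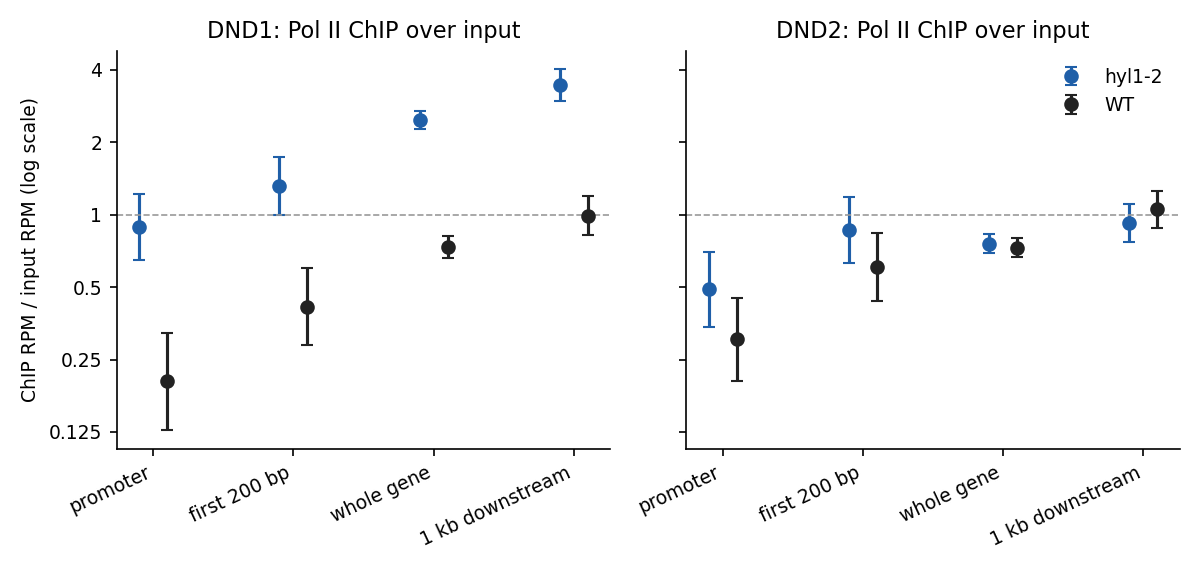
ChIP RPM over input RPM (y axis, log scale) in the 4 windows (x axis) of *DND1* (left) and *DND2* (right), *hyl1-2* in blue and WT in black, 1 library of ChIP and of input per point, with 95% counting intervals as bars and a dashed line where ChIP equals input. The *hyl1-2* points of *DND1* run between 0.888 and 3.47 and its WT points between 0.203 and 0.989, while the intervals of the 2 genotypes overlap in each window of *DND2*.

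The fold change of *DND1* divided by that of *DND2* was 2.71 (1.24 to 5.91) at the promoter, 2.23 (1.16 to 4.25) in the first 200 bp, 3.26 (2.71 to 3.92) over the whole gene and 3.97 (2.79 to 5.65) in the 1 kb downstream. The interval stood above 1 in each window. Because both genes were counted in the same 4 libraries, a constant scaling factor between libraries cancels in this quotient. A difference between the immunoprecipitations that varies from gene to gene does not cancel, and its part was not tested.

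**Figure D3:**
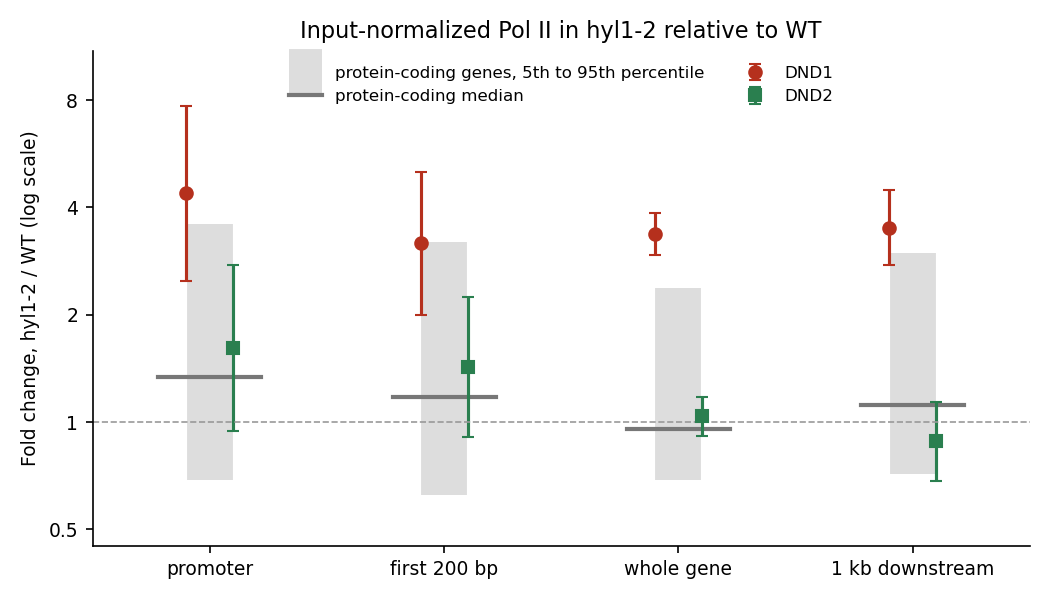
Fold change of input-normalized RNA Pol II, *hyl1-2* over WT (y axis, log scale), in the 4 windows (x axis) for *DND1* (red circles) and *DND2* (green squares), with 95% counting intervals, over grey bars for the 5th to 95th percentile of protein-coding genes and a dark line for their median. *DND1* lies between 3.17 and 4.38, *DND2* between 0.882 and 1.62, and the medians of all genes between 0.958 and 1.33.

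Along *DND1*, the difference was present from end to end. All 37 bins of 100 bp within the gene had a fold change above 1.2, from 1.62 to 14.8 with a median of 3.11, and the counting interval was above 1 in 36 of them. The 2 upstream bins had 3.90 and 4.01, and the 9 downstream bins lay between 1.73 and 12.5. Neighbouring bins share reads, so they are not separate measurements. In *hyl1-2* the ChIP was above input in 37 of the 37 bins of the gene, against 14 in WT. The deposited intervals are longer in ChIP than in input, which raises the ratio in a 100 bp bin by a factor of 1.09 in both genotypes and cancels in the fold change. After division by this factor, 37 bins in *hyl1-2* and 13 in WT were above input.

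With the gene divided into 5 equal parts from 5′ to 3′, the ratio of *DND1* in *hyl1-2* was 1.68, 2.89, 2.70, 2.61 and 3.15. The same parts had ratios of 0.603, 0.665, 0.974, 0.95 and 0.660 in WT. The fold change was thus 2.79 in the first part, 4.35 in the second, 2.77 in the third, 2.75 in the fourth and 4.77 in the last. The lowest of these had an interval of 2.11 to 3.58 and the highest one of 3.59 to 6.33. The ratio was lowest in the first part in both genotypes. In WT, however, the interval of the first part (0.480 to 0.758) overlapped those of the second (0.530 to 0.834) and the last (0.536 to 0.813). The largest fold change fell in the last part, where *hyl1-2* was highest and WT was again low. This last part also holds the 200 bp upstream of the next gene, described further on.

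The highest ratio of *DND1* in *hyl1-2* was 5.36, in the bin 800 to 900 bp into the gene, within exon 3, with 150 and 21 reads in *hyl1-2* ChIP and input, against 47 and 32 in WT ChIP and input. This exon had 56.6% GC and a fold change of 4.13 (3.02 to 5.64) as a whole. The 21 reads of *hyl1-2* input were the fewest of that library in any bin of *DND1*. By ChIP reads alone, *hyl1-2* was highest within the gene at 2200 to 2300 bp, with 221 reads. The highest ratio in WT was 1.99, in the bin from 1900 to 2000 bp. The largest fold change, 14.8 (8.09 to 27.1), came from the bin 3500 to 3600 bp into the gene, in the last exon, where 184 and 38 reads lay in *hyl1-2* ChIP and input, against 24 and 46 in WT ChIP and input. The WT ratio of 0.245 in that bin was the lowest of WT within the gene. The bin also lies in the 200 bp upstream of the next gene, described further on.

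The shape of the RNA Pol II profile also differed between the genotypes over *DND1* and less so over *DND2*. Across the 37 bins of *DND1*, the log2 ratios of *hyl1-2* and WT had a Pearson's r of 0.20 (Spearman's rho 0.13), and across the 51 bins of *DND2* an r of 0.83 (rho 0.71). These are descriptions across bins that share reads and base composition. In the first 200 bp against the rest of the gene, *DND1* had a ratio of 0.507 (0.378 to 0.678) in *hyl1-2* and 0.543 (0.370 to 0.798) in WT, a quotient of 0.933 (0.575 to 1.51), and the quotient was 1.27 where reads were counted by their midpoints. The start of *DND1* thus held less RNA Pol II than the rest of the gene in both genotypes, and no shift between start and body was detectable at this depth. Over the 22968 genes of at least 1000 bp, the medians of this ratio were 0.821 in *hyl1-2* and 0.669 in WT, with a median quotient of 1.22.

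The ChIP over input ratio of *DND2* rose and fell in blocks, which lay at similar places in both genotypes over much of the gene. Most of the gene was not above input: after division by the factor of 1.09, 11 of the 51 bins in *hyl1-2* and 12 in WT were. The highest bins differed: in *hyl1-2* the maximum of 1.31 lay 4700 to 4800 bp into the gene, where WT had 0.807, and in WT the maximum of 1.99 lay at 3700 to 3800 bp, where *hyl1-2* had 1.02. Within exons the median ratio of its 27 bins was 0.967 in *hyl1-2* and 1.01 in WT, and within introns the median of 24 bins was 0.645 in *hyl1-2* and 0.585 in WT. The lowest stretch was in intron 1: from 800 to 1100 bp into the gene, the 3 bins had 19, 11 and 10 reads in *hyl1-2* ChIP and 11, 8 and 14 in WT ChIP, against inputs of 54, 52 and 52 in *hyl1-2* and 53, 41 and 39 in WT. Intron 1 had 26% GC. Across the 62 bins of *DND2* the GC content ran from 20% to 60%, and its correlation with the log2 ratio was an r of 0.49 in *hyl1-2* and 0.58 in WT. Across the 48 bins of *DND1* it was 0.12 in *hyl1-2* and 0.31 in WT. The part of base composition in the blocks of *DND2* was not tested.

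Of the 51 bins within *DND2*, 15 were above 1.2 and 11 below 0.8, and the counting interval was above 1 in 4 and below 1 in 3. The stretch with the clearest lower value was exon 7, chosen after its values were seen, with 113 and 104 reads in *hyl1-2* ChIP and input, against 211 and 63 in WT ChIP and input, and a fold change of 0.518 (0.352 to 0.763). The other 6 exons of *DND2* of at least 200 bp lay between 0.858 and 1.32. In 5 equal parts of the gene, the fold change was 1.2, 1.05, 1.18, 0.916 and 1.02, each with an interval that included 1. The first 200 bp against the rest of *DND2* gave 1.14 (0.821 to 1.59) in *hyl1-2* and 0.806 (0.576 to 1.13) in WT, a quotient of 1.42 (0.884 to 2.27).

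The nearest genes showed how far the difference at *DND1* reached. *MUSE3* (AT5G15400), a ubiquitin ligase gene known from a screen for enhancers of an autoimmune mutant, lies downstream on the same strand, and its annotated 5′ end overlaps the 3′ end of *DND1* by 28 bp. Reads at this junction cannot be assigned to 1 of the 2 genes. The promoter of *MUSE3*, which is the end of *DND1*, had 245 and 54 reads in *hyl1-2* ChIP and input, against 41 and 66 in WT ChIP and input, and a fold change of 11.7 (7.15 to 19.0). The inputs differed in this window, with a quotient of *hyl1-2* and WT of 0.637 (0.445 to 0.913), and the quotient of ChIP RPM alone was 7.43 (5.34 to 10.3). The first 200 bp of *MUSE3* had 290 and 49 reads in *hyl1-2* ChIP and input, against 45 and 60 in WT ChIP and input. The fold change there was 12.6 (7.71 to 20.6). Over the whole of *MUSE3* the fold change was 1.36 (1.23 to 1.51). Without its last 500 bp, *DND1* had a fold change of 2.97 (2.57 to 3.43).

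In steps of 1 kb past the end of *DND1*, the fold change was 3.5, 1.97, 0.875, 0.758, 0.914 and 0.881. The 1 kb upstream of *DND1* had 2.75 (1.98 to 3.82), with 169 and 227 reads in *hyl1-2* ChIP and input, against 80 and 185 in WT ChIP and input, and the next 1 kb upstream had 0.722 (0.554 to 0.941). The windows whose interval stood above 1 thus spanned the gene, 1 kb before it and 2 kb after it. The 2 kb after it lie within *MUSE3*. An interval above 1 was also found in the 1 kb upstream of *DND2*, as given below, so the upstream value is not particular to *DND1*. AT5G15420, an uncharacterized gene whose 3′ end lies 943 bp upstream, had a whole gene fold change of 0.768 (0.595 to 0.990).

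Around *DND2* the highest values lay upstream of the gene. The 1 kb upstream had 2.09 (1.46 to 3.0), with 115 and 232 reads in *hyl1-2* ChIP and input, against 68 and 180 in WT ChIP and input, and the next 1 kb upstream, which reaches the promoter of *MRE11*, had 2.64 (1.88 to 3.70). *MRE11*, a DNA repair nuclease gene, starts 1938 bp upstream on the opposite strand, with a promoter value of 4.41 (2.33 to 8.35) and a whole gene value of 0.874 (0.785 to 0.973). Downstream, AT5G54240, annotated as a putative membrane lipoprotein lipid attachment site-like protein, lies on the same strand and begins after a gap of 376 bp, so that its 5′ part falls in the 1 kb downstream of *DND2*. It had a whole gene value of 0.812 (0.664 to 0.993).

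**Figure D4:**
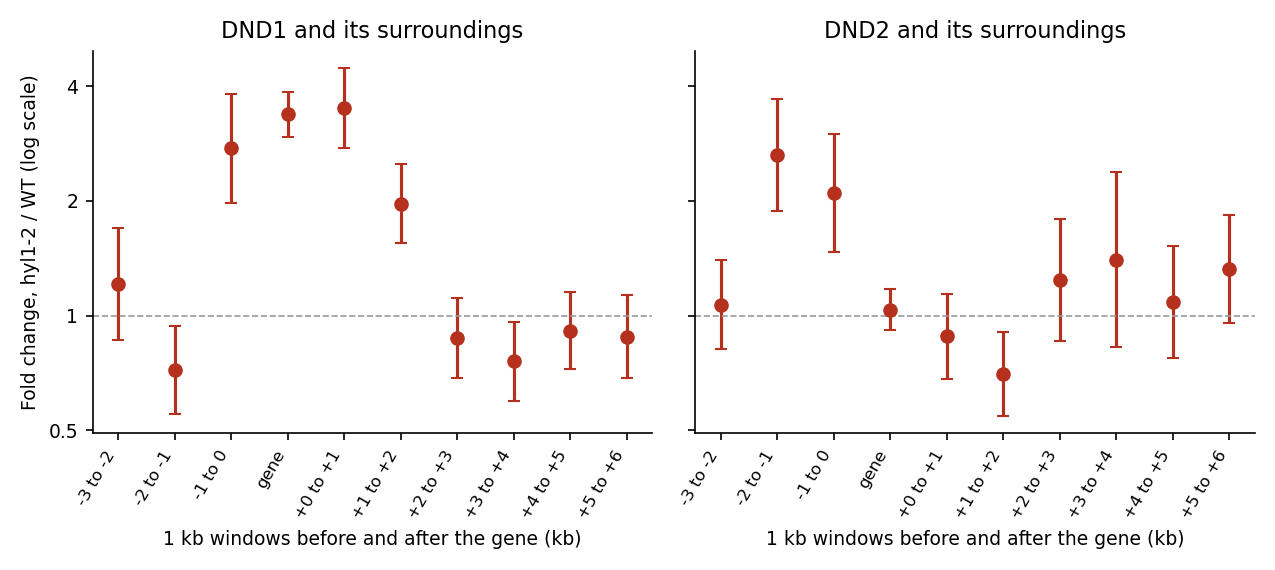
Fold change of input-normalized RNA Pol II, *hyl1-2* over WT (y axis, log scale, 95% counting intervals), in 1 kb windows from 3 kb before to 6 kb after each gene and over the gene itself (x axis), for *DND1* (left) and *DND2* (right). Around *DND1* the value is 2.75 in the last 1 kb before the gene, 3.38 over it, 3.5 and 1.97 in the 2 windows after it and 0.914 or less beyond, while *DND2* itself has 1.04 between higher values upstream and 0.882 downstream.

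Over the whole gene, *DND1* had a fold change beyond the range of the other channels of its family. Of the other 18 CNGC genes, 3 were above 1.2 and 3 below 0.8, between 0.721 and 1.35 with a median of 0.963, beside 25.9% above 1.2, 21.4% below 0.8 and a median of 0.958 for all genes. *DND1* had the highest fold change of the 20 genes and the highest ratio in *hyl1-2*, and it was at place 18 of 20 by its ratio in WT. *DND2* was at place 20 of 20 in *hyl1-2* and at place 19 of 20 in WT. The 2 subunits thus shared the low end of the family in WT with *CNGC3*, which was at place 20. In WT the ratio was 0.626 to 1.31 at leaf mesophyll markers and 1.14 to 1.85 at markers of root, pollen and seed storage. A low place in WT thus need not mean little RNA Pol II.

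The 3 highest of the other CNGC genes were *CNGC3* with 1.35 (1.17 to 1.56), *CNGC8* with 1.34 (1.17 to 1.54) and *CNGC1* with 1.34 (1.16 to 1.55). *CNGC8*, a channel gene known for its expression in pollen, was the only other family member with a ratio above 2 in *hyl1-2* (2.43), and it also had the highest ratio of the family in WT (1.81). In its first 200 bp, however, *CNGC8* had ratios of only 0.497 in *hyl1-2* and 0.564 in WT. In the 1 kb past its end they were 6.11 and 2.28, so its signal was not highest at its start. The 3 lowest were *CNGC18* with 0.721 (0.624 to 0.834), *CNGC16* with 0.731 (0.631 to 0.846) and *CNGC10* with 0.779 (0.683 to 0.888). CNGC18 and CNGC16 are known as channels of pollen. In the shorter windows the family and *DND1* overlapped more. At the promoter, 14 of the 18 were above 1.2 and 1 below 0.8, with a median of 1.39, beside 58.6% of all promoters above 1.2 and 11.7% below 0.8. The highest there, chosen after the values were seen, were *CNGC3* with 3.98 (1.74 to 9.14), *CNGC11* with 3.12 (1.94 to 5.03), *CNGC12* with 3.09 (1.63 to 5.87) and *CNGC19* with 2.96 (1.67 to 5.24), whose intervals overlapped that of *DND1* (2.49 to 7.71). The first 200 bp had 11 above and 0 below, beside 48.4% and 18.8% of all genes, with the highest value at *CNGC5*, 2.37 (1.47 to 3.84). The 1 kb downstream had 9 above and 2 below, beside 42.4% and 13.0%, with the highest value at *CNGC8*, 2.68 (2.17 to 3.32). The intervals of *DND1* overlapped both.

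**Figure D5:**
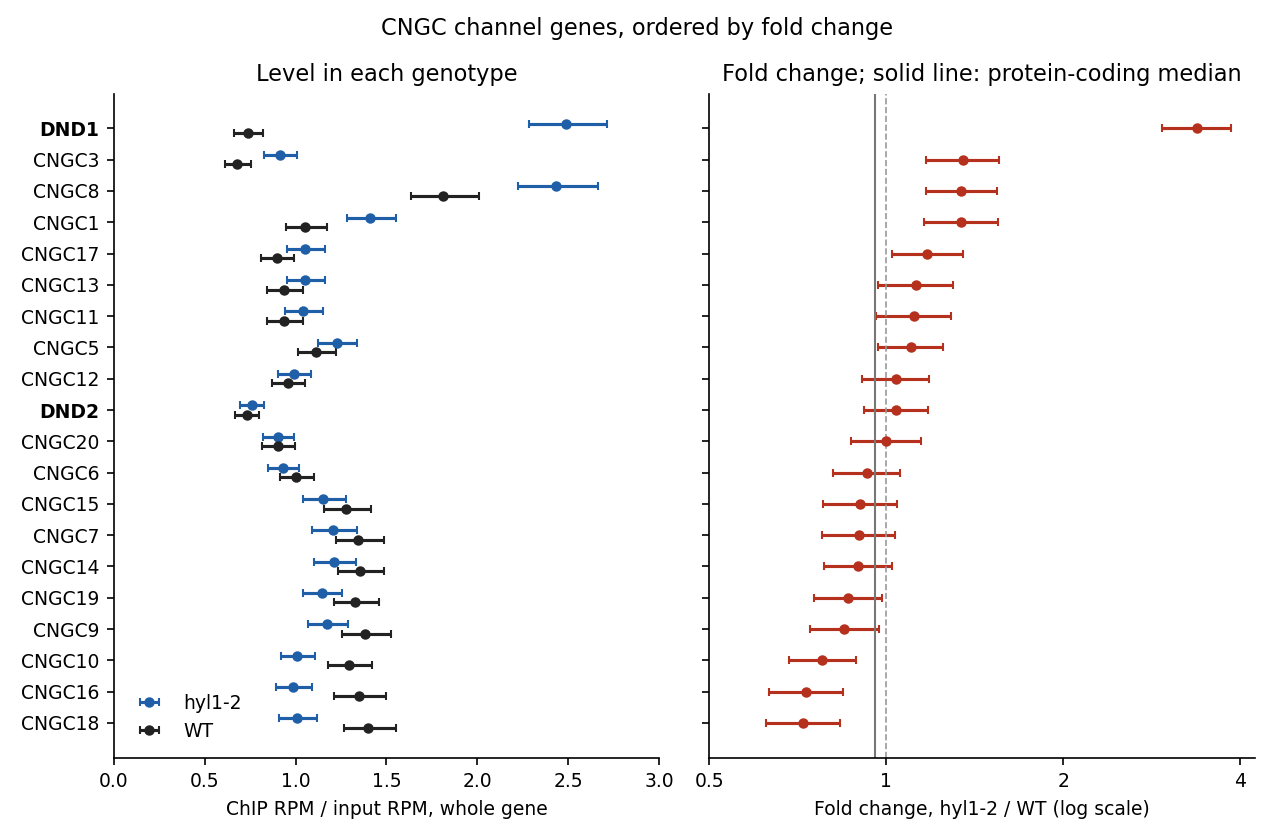
The 20 CNGC genes ordered by whole gene fold change from top to bottom, with ChIP RPM over input RPM in *hyl1-2* (blue) and WT (black) on the left and the fold change, *hyl1-2* over WT (log scale), on the right, all with 95% counting intervals. *DND1* is at 2.49 in *hyl1-2* and 0.737 in WT, and its fold change of 3.38 lies beyond the 0.721 to 1.35 of the other 18 genes, while *DND2* has the lowest level of the family in *hyl1-2*, at 0.758.

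Among 16 genes of calcium transport and pattern-triggered immunity, the pathway in which the channel works, 10 were above 1.2 and 1 below 0.8 over the whole gene, with a median of 1.32, beside 25.9% and 21.4% of all genes. The highest was *CAX1*, a vacuolar calcium/proton exchanger, with 3231 and 839 reads in *hyl1-2* ChIP and input, against 1139 and 655 in WT ChIP and input, and a fold change of 3.54 (3.13 to 4.00). *FLS2*, the receptor of flagellin, had 2.44 (2.17 to 2.74), and *BIK1*, the receptor-associated kinase known to phosphorylate the DND1 and DND2 channel, had 2.33 (1.98 to 2.74). *DND1*, at 3.38, lay between *CAX1* and *FLS2*. The lowest were *GLR3.6*, a glutamate receptor-like calcium channel, with 0.716 (0.635 to 0.807), and the receptors of Pep peptides *PEPR2* with 0.895 (0.786 to 1.02) and *PEPR1* with 0.985 (0.870 to 1.11). At the promoter, 15 of the 16 genes were above 1.2 and 0 below 0.8, with a median of 2.24, beside 58.6% and 11.7% of all promoters and a median of 1.33. The counting interval was above 1 at 10 of these 16 promoters, beside 30.8% of all promoters. Only 2 of the 16 had at least 50 promoter reads in each library.

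The genes whose RNA Pol II values were most like those of each channel gene were found by the distance over 8 log2 ratios, 4 windows in each genotype, among 7309 genes with at least 50 reads in each library and window. *DND1* and *DND2* themselves did not reach that minimum, with 84 and 49 promoter reads in *hyl1-2* ChIP and 25 and 40 in WT ChIP. Nearest to *DND1* were *PSBW*, a photosystem II subunit gene, at a distance of 1.41, AT5G02160, an uncharacterized gene, at 1.43, and *PORB*, a protochlorophyllide oxidoreductase gene, at 1.45. Their whole gene fold changes were 2.69, 3.68 and 3.33. At the promoter they were less like *DND1*, with 2.37, 1.95 and 1.83 against its 4.38. Genes with as few promoter reads in WT ChIP as *DND1* were left out by the minimum. Nearest to *DND2* were the ribosomal protein genes AT1G77940 (distance 0.646) and AT3G55170 (0.689) and the uncharacterized AT2G31345 (0.670), with whole gene fold changes of 1.36, 0.983 and 1.04. *DND1* and *DND2* were 2.88 apart, and of the 7309 genes 1104 were nearer to *DND1* than *DND2* was and 5517 nearer to *DND2* than *DND1* was.

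Set against the 9 markers of root, pollen and seed storage, the whole gene ratio of *DND1* in *hyl1-2* (2.49) was above that of all 9, and its ratio in WT (0.737) was below that of all 9. *DND2* was below all 9 in both genotypes, at 0.758 in *hyl1-2* and 0.731 in WT. The part of the difference between the ChIP libraries in the fold change of *DND1* was not tested. Scaling the libraries on intergenic windows in place of the totals lowered every log2 fold change by 0.17, after which *DND1* had 3.01 over the whole gene and *DND2* 0.925.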

How the data were processed

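RNA Pol II ChIP-seq and input were analysed for leaves of 21-day-old *hyl1-2* and WT plants, 1 library per group. According to the paper, reads were trimmed to 50 bp, aligned to TAIR10 with Bowtie, freed of duplicates with SAMtools and extended to 200 bp. The shortest deposited intervals, which lay at chromosome ends, were 75 bp in ChIP and 50 bp in input. At *HYL1* these lengths were taken as the aligned parts of the reads. Bowtie, SAMtools and bedtools are named in the submitters' processing notes, and their versions are not given in the sources used here. The deposited files give other values than counts: the start, end and strand of each extended read, 200 bp long in ChIP and 175 bp in input. With overlap counting this raises ChIP over input by a factor of 1.07 in 200 bp windows and 1.02 in 1 kb windows, in both genotypes. The deposited score is the mapping quality, used only to leave out reads of quality 0 in 1 alternative. Duplicate removal limits the count at any position, which lowers high ratios more than low ones.

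A read counted towards each window that shared 1 bp or more with its interval, and windows needed a minimum of 10 reads per library, in Python 3.11.15 with NumPy 2.4.6, pandas 2.3.3 and SciPy 1.17.1. Figures were drawn with Matplotlib 3.10.9. Gene models and sequences came from the TAIR10.1 reference, whose nuclear chromosomes end where the reads end (chromosome 5 at 26975502 bp). Fold changes, their 95% intervals from the 4 counts and the thresholds of 1.2 and 0.8 were used as stated above. The fold change and its interval were tested on window counts simulated with counting error alone. No p-value was computed.

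The 2 genes and all lists were chosen with earlier results of these data known. Named were both genes, the nearest gene on each side, the 3 highest and 3 lowest whole gene fold changes of each list (minimum 50 reads per library), the 3 most alike genes for each, and *HYL1*. Alternatives were the total used, scaling on intergenic windows, mapping quality, no input, counting by midpoint, the direction of extension, GC content, taken positions, the promoter window and the read minimum. Leaving out the last 500 bp of each gene was added after seeing the data.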

Additional observations from a re-analysis of the deposited data

How the results depend on the processing

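No paired analysis was possible because the labels give no replicate numbers and each group has 1 library, so leaving out a replicate was not possible either. All 74 alternative values of *DND1* and *DND2* stayed within the 95% counting interval of the value reported. Within these intervals, the *DND2* promoter was at 1.12 in the window from 300 to 100 bp upstream, the 1 kb downstream of *DND2* was at 0.786 with intergenic scaling, and the start against body quotient of *DND1* was at 1.27 by midpoints. *DND1* was above 1.2 in all 4 windows under each alternative run, between 2.78 and 4.51. The counts over all protein-coding genes moved more. With intergenic scaling, genes below 0.8 numbered 4937 in place of 3084 at the promoter, 10979 in place of 5872 over the whole gene and 7010 in place of 3578 in the 1 kb downstream. With at least 50 reads in each library, genes above 1.2 numbered 4509 in place of 15487 at the promoter and 5446 in place of 13220 in the first 200 bp, and genes below 0.8 numbered 1359 in place of 3084 and 2460 in place of 5139. Fewer genes were counted, and the shares above 1.2 were 44.8% in place of 58.6% at the promoter and 41.0% in place of 48.4% in the first 200 bp, and those below 0.8 were 13.5% in place of 11.7% and 18.5% in place of 18.8%. Depth limits the promoter of *DND1* most, where 25 reads of WT ChIP give an interval of 2.49 to 7.71.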
